A study of Mus musculus with 8 samples.

Results

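The autophagy machinery was followed in AtT20 cells, a mouse pituitary corticotroph tumor line that secretes ACTH, after incubation with the RXR agonist HX630. The 38 genes of the list were found on the array through the RefSeq accession of each probe, among 19751 gene symbols in all, and every one of them had at least 1 probe. They encode the proteins that start, build and close the autophagosome, with the cargo receptors *Sqstm1*, *Nbr1* and *Optn* and the FYVE domain proteins *Wdfy1* and *Wdfy3*. Total RNA came from 4 control samples and from 4 samples that received 10 μM HX630, and each sample was hybridized to its own 1-color Agilent array. Both groups were kept for 48 hr in medium with 1% stripped serum, and the controls went without HX630. The labels do not say whether the controls received the solvent, or whether the samples of a group were separate cultures, so that the p-values measure only the spread between these samples, which may be technical.

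Macroautophagy encloses cytoplasm in a growing double membrane, the phagophore, which closes into an autophagosome and fuses with a lysosome. The ULK kinase complex starts it, a class III PI 3-kinase complex marks the membrane with PI3P, and PI3P-binding proteins then bring in the lipid transfer and conjugation machinery that attaches LC3 and GABARAP proteins to the membrane. Secretory cells of the pituitary also use lysosomes to break down unneeded hormone granules. RXRs, the receptors that HX630 activates, are nuclear receptors that bind DNA with partner receptors. Much of autophagy is controlled by phosphorylation, lipidation and protein turnover, which mRNA signals do not measure.

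The signal of a probe is given as the log2 of its processed intensity minus the 75th percentile of its array, so that 0 stands for that percentile and a difference of 1 for a doubling. Probes that stood well above background on 4 or more arrays were tested with limma. A call needed an adjusted p below 0.01 together with more than a 1.5-fold change, which is 0.585 on the log2 scale. Where a gene had several tested probes, its brightest stands for it. Between 69.7% and 73.5% of probes were well above background on each array, and correlations across probes were at least 0.994 within the groups, against 0.978 to 0.984 between a control and an HX630 array. The control arrays all lay on 1 slide and the HX630 arrays on another, and slides and scans therefore cannot be told apart from the treatment. The corticotroph genes *Pomc*, *Tbx19*, *Neurod1*, *Pcsk1* and *Crhr1* were measured on all 8 arrays, while *Avpr1b* stayed at background. The summed signal of the 5 measured genes was 294 to 368 times the 75th percentile in the controls and 212 to 222 with HX630. All 5 passed an adjusted p below 0.01, with *Pomc* at -0.45, *Tbx19* at -0.37, *Pcsk1* at -2.06, *Neurod1* at 0.72 and *Crhr1* at 1.11 on the log2 scale. Of the markers of other cells, *Prl*, *Tshb*, *Lum* and *Cdh5* were not well above background on any array. The summed signal of 3 tested macrophage markers was 0.726 to 0.851 times the 75th percentile in the controls and 0.453 to 0.546 with HX630, and that of 2 endothelial markers was 2.70 to 3.35 and 2.15 to 2.63. These sums take the brightest probe of each gene, and dimmer probes differed less. For *Csf1r* the log2 fold change was -0.72 on the brightest probe and -0.31 and -0.15 on the others. For *Kdr* it was -0.36 on the brightest and -0.06 (limma adjusted p = 0.743) on a much dimmer one. The fibroblast list, at 0.0987 to 0.123 and 0.108 to 0.156, and the list of other pituitary hormone cells, at 0.307 to 0.472 and 0.298 to 0.354, overlapped between the groups in their sums, although *Dcn* of the first was called higher (1.04, limma adjusted p = 0.00709) and *Gh* of the second lower (-0.79, adjusted p = 0.000607). The part of these markers in the results for the autophagy genes was not tested.

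Of the 38 genes, 36 were well above background on all 8 arrays and were tested. *Atg4a*, a protease for LC3 proteins, was well above background on 0 control arrays and 1 HX630 array, and *Atg9b*, a paralog of the phagophore membrane protein *Atg9a*, on none. *Wipi1* fell and *Atg10* rose, so that 2 of the 36 tested genes (5.56%) were called, against 19.5% of the 15332 genes tested on the array. By direction, 1 of 36 was called higher, against 8.39% of all genes, and 1 of 36 lower, against 11.2%. The median log2 fold change of the 36 genes was -0.01, and that of all genes was -0.03. In absolute size the median was 0.16 for the autophagy genes and 0.28 for all genes. The 36 genes were split evenly, with 18 higher and 18 lower, against 7116 higher and 8216 lower over the array. This split depends on the scaling of the arrays, and with scaling to the spike-in controls the median of the 36 genes was 0.20. Because total RNA of whole cultures was measured, a smaller signal per cell and a smaller share of cells with the transcript cannot be told apart.

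**Figure D1:**
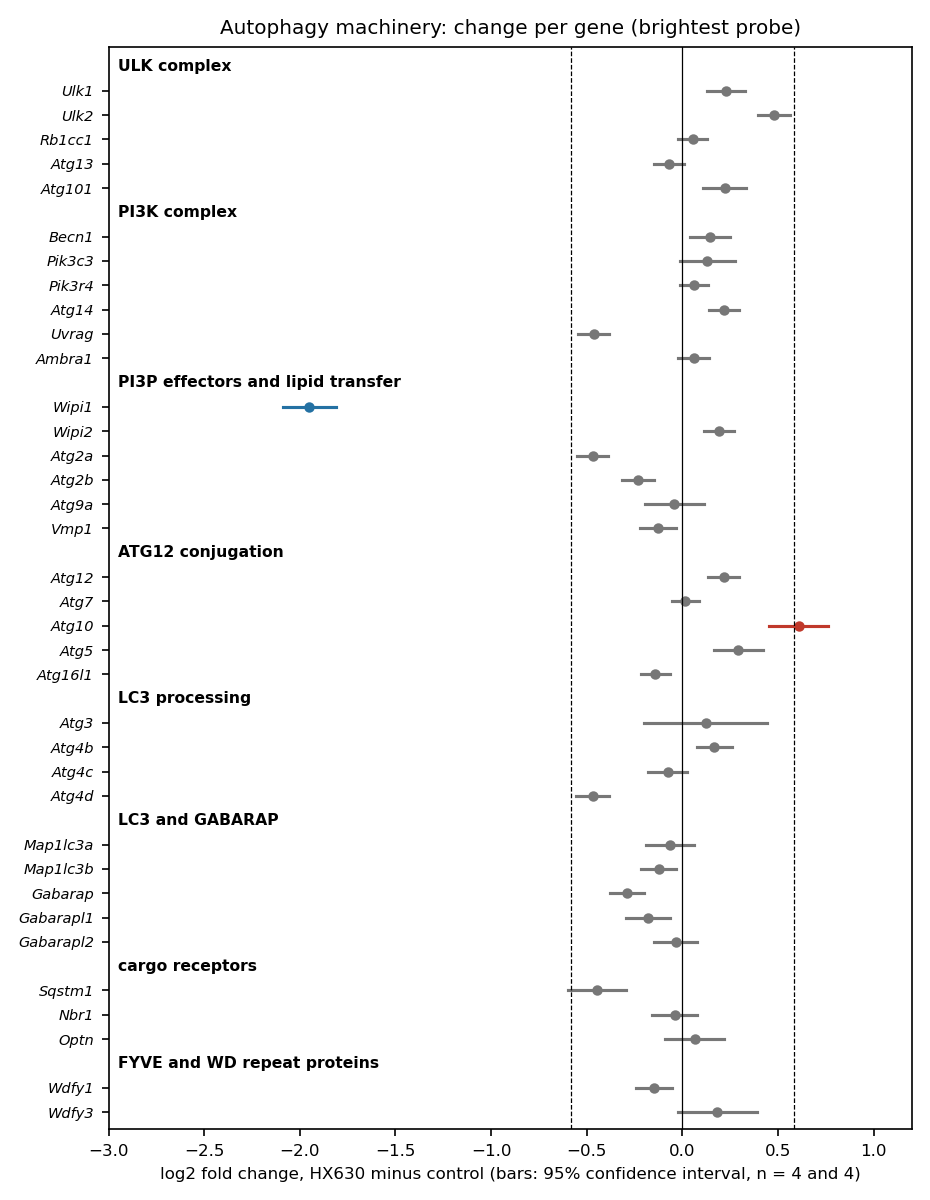
Log2 fold change of HX630 against control for the 36 tested autophagy genes, by role, 1 row per gene. Points are limma estimates for the brightest probe, bars are 95% confidence intervals over 4 and 4 arrays, and dashed lines mark a 1.5-fold change. *Wipi1*, at -1.95, lies apart from all others, which lie between -0.47 and 0.61. With scaling to the spike-in controls all points move up by 0.21.

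At an adjusted p below 0.01 without regard to the fold change, 9 of 36 genes were higher, against 24% of all genes, and 8 were lower, against 27.2%. These 17 genes are 47.2% of those tested, against 51.2% of all genes. Of the 17, 15 stayed under the 1.5-fold threshold, as did 4851 of 7848 over the array. In 24 of 36 genes (66.7%) the 4 HX630 arrays all lay on 1 side of the 4 control arrays, which was so for 61.5% of all genes. Each of these 24 had p = 0.0286 in a two-sided exact permutation test, the lowest that 4 against 4 arrays allow. For 33 of 36 genes (91.7%) the whole 95% confidence interval lay within 1.5-fold in either direction, against 61.7% of all genes. The exceptions were *Wipi1*, *Atg10* and *Sqstm1*. The median standard error was 0.040 for the autophagy genes and 0.055 for all genes.

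**Figure D2:**
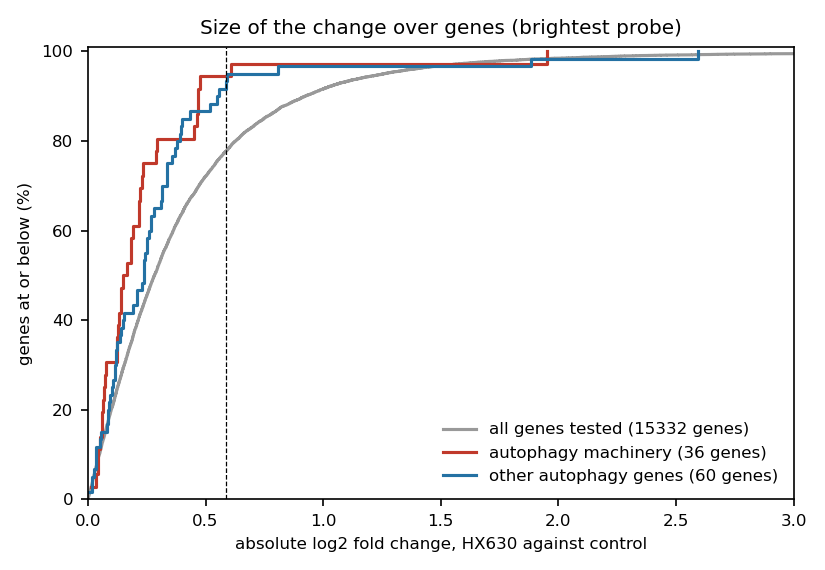
Cumulative share of genes (y axis, %) by the absolute log2 fold change of HX630 against control (x axis), for 36 autophagy machinery genes, 60 other autophagy genes and all 15332 genes tested. At the dashed line, a 1.5-fold change, the curves stand at 94.4%, 91.7% and 77.6%.

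The 5 genes of the ULK complex, which receives the signals of nutrient and energy state, held no called gene, and 3 of them were higher at an adjusted p below 0.01, against 24% of all genes. *Ulk2*, one of the paired kinases of the complex, had the largest difference of the group. On the control arrays its signal was -0.51, -0.43, -0.41 and -0.41, and with HX630 it was 0.01, 0.04, 0.03 and 0.07. No control array reached the lowest HX630 array. The log2 fold change was 0.48 (standard error 0.036, limma adjusted p = 1.62e-05), and that of a second probe was 0.54 (adjusted p = 2.24e-05). Both are below 1.5-fold, but with scaling to the spike-in control probes, which raised the median of all genes by 0.21, the brighter probe reached 0.69 and was called. *Ulk1*, the other kinase, was higher by 0.23 (limma adjusted p = 0.00235), and *Atg101*, which stabilizes *Atg13*, by 0.22 (adjusted p = 0.00479). The scaffold gene *Rb1cc1* (0.05, adjusted p = 0.202) and the adaptor gene *Atg13* (-0.07, adjusted p = 0.102) did not pass the test. Of these 5 genes, *Atg13* alone changed sign with the scaling of the arrays.

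None of the 6 genes of the PI 3-kinase complex was called either. *Uvrag*, whose protein joins the complex at endosomes and later autophagosomes, was 2.81, 2.72, 2.74 and 2.82 on the control arrays and 2.29, 2.29, 2.32 and 2.31 on the HX630 arrays. All HX630 values lay below all control values. This is a log2 fold change of -0.46 (standard error 0.036, limma adjusted p = 1.7e-05), or 72.5% of the control signal. *Atg14*, whose protein takes the place of UVRAG in the complex that acts at the phagophore, was higher by 0.22 (standard error 0.033, adjusted p = 0.000778). It lay between -0.17 and -0.10 in the controls and between 0.05 and 0.13 with HX630. *Becn1*, the shared regulatory subunit, had a difference of 0.14 that did not pass at adjusted p = 0.0267. The lipid kinase *Pik3c3* (0.13, adjusted p = 0.108), its partner kinase-like subunit *Pik3r4* (0.06, adjusted p = 0.129) and *Ambra1*, a regulator of *Becn1* (0.06, adjusted p = 0.185), also did not pass.

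*Wipi1* gave the largest difference of the list. It encodes a propeller protein that binds PI3P on the growing phagophore. Its brighter probe (NM_145940) read 2.53, 2.56, 2.69 and 2.73 on the control arrays. On the HX630 arrays it read 0.72, 0.58, 0.68 and 0.73. The groups lay far apart against a spread of 0.098 (SD, n = 4) in the controls and 0.068 (SD, n = 4) with HX630. The log2 fold change was -1.95 (standard error 0.059, 95% confidence interval -2.09 to -1.81, limma adjusted p = 2.34e-07), which left 25.9% of the control signal. The second probe of the same transcript read 0.52, 0.44, 0.52 and 0.37 in the controls. With HX630 it read -0.97, -1.60, -1.56 and -1.56, so that replicate 1 stood above the other HX630 arrays but still below all controls. Its log2 fold change was -1.88 (standard error 0.139, adjusted p = 1.41e-05). The difference between the 2 probes in fold change, 0.07, did not pass a two-sided exact permutation test (p = 0.771). *Wipi1* was called under all 24 settings examined, with log2 fold changes from -1.98 to -1.74.

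The remaining genes of this group had smaller differences. *Wipi2*, the paralog of *Wipi1* whose protein brings ATG16L1 to the membrane, went the other way, with 0.19 (standard error 0.034, limma adjusted p = 0.00169) and, for a second probe, 0.09 (adjusted p = 0.0696). *Atg2a*, which encodes a lipid transfer protein that binds WIPI proteins, was 0.80, 0.80, 0.72 and 0.71 in the controls and 0.30, 0.28, 0.30 and 0.28 with HX630. The groups were separate, and the log2 fold change was -0.47 (standard error 0.035, adjusted p = 1.45e-05). Its paralog *Atg2b* was lower by a smaller amount, with -0.23 (adjusted p = 0.000856) and -0.02 under spike-in scaling. *Atg9a*, the lipid scramblase of the phagophore's seed vesicles, had a log2 fold change of -0.04 (adjusted p = 0.602). *Vmp1*, an ER protein needed for phagophore growth, had -0.13 (adjusted p = 0.0245). Both changed sign under spike-in scaling.

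**Figure D3:**
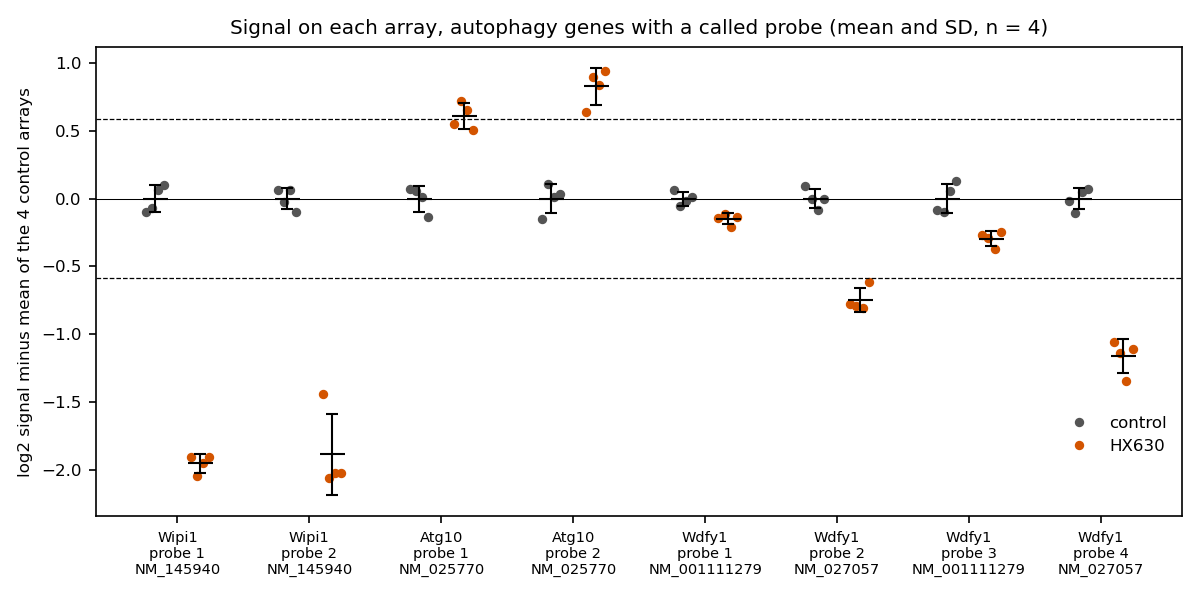
Log2 signal of every tested probe of *Wipi1*, *Atg10* and *Wdfy1* on each of the 8 arrays, minus the mean of the 4 control arrays for that probe. Gray points are control arrays, orange points HX630 arrays, horizontal lines and bars the mean and SD (n = 4), and dashed lines a 1.5-fold change. With HX630 the *Wipi1* probes lie at -1.95 and -1.88 and the *Atg10* probes at 0.61 and 0.83, while the *Wdfy1* probes lie at -0.75 and -1.16 for NM_027057 and at -0.15 and -0.29 for NM_001111279.

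*Atg10* encodes the conjugating enzyme that hands ATG12 to ATG5, and of the 36 genes of the machinery it alone was called higher. Its brighter probe (NM_025770) read -2.20, -2.22, -2.25 and -2.41 on the control arrays. With HX630 it read -1.72, -1.55, -1.62 and -1.76, above every control array. The log2 fold change was 0.61 (standard error 0.066, limma adjusted p = 0.000121), or 1.52-fold, just over the threshold. The second probe of this transcript rose by 0.83 (standard error 0.081, adjusted p = 6.52e-05). It read -4.31, -4.06, -4.16 and -4.13 in the controls and -3.53, -3.27, -3.33 and -3.23 with HX630. The brighter probe was not called after normexp background correction (0.47), without control replicate 4 (0.56) or without HX630 replicate 2 (0.57), but its adjusted p stayed at or below 0.000693 under all 24 settings.

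The other 4 genes of ATG12 conjugation were not called. *Atg12*, the ubiquitin-like protein itself, was higher by 0.22 on its brighter probe (standard error 0.035, limma adjusted p = 0.00104) and differed by -0.05 on the other (adjusted p = 0.44). *Atg5*, the acceptor of ATG12, was higher by 0.29 (standard error 0.055, adjusted p = 0.00248), from 0.98 to 1.18 in the controls to 1.34 to 1.45 with HX630. *Atg16l1*, which places the ATG12-ATG5 conjugate on the membrane, was lower by 0.14 (adjusted p = 0.00669) but had 0.07 under spike-in scaling and 0.02 after normexp correction. *Atg7*, the activating enzyme that serves both ATG12 and LC3, had 0.01 (standard error 0.030, adjusted p = 0.716), with a 95% confidence interval of -0.06 to 0.08.

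Upstream sequences are shown for the 2 called genes. They are the 250 bases before the annotated start in RefSeq on GRCm38.p6, both on the minus strand and written 5′ to 3′, at chr11:109611390-109611639 for *Wipi1* and chr13:91223988-91224237 for *Atg10*. Capitals mark GGGCGG, the GC box, on either strand, so that the reverse complement is also in capitals.
Wipi1: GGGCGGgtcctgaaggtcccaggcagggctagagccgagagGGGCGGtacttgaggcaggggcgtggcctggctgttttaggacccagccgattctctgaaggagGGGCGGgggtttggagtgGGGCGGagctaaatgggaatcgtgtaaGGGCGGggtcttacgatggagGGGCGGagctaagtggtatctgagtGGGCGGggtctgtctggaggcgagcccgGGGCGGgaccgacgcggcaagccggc
Atg10: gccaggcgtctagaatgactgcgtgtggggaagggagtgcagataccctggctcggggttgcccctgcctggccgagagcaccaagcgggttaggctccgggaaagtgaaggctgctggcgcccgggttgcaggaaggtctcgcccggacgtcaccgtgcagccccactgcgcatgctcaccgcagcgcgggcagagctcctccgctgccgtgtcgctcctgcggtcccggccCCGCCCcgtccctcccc
*Wipi1* holds 8 GC boxes in this window, all on the same strand, and *Atg10* holds 1, on the other strand. Of 32851 upstream windows of mouse genes, 32.7% held at least 1 GC box and 51 (0.155%) held 8 or more. RefSeq windows were on hand for 30 of the 38 genes (35 windows), and 18 of the 35 held the motif. *Atg12*, *Atg16l1*, *Becn1*, *Map1lc3a*, *Pik3c3*, *Rb1cc1*, *Wdfy1* and *Wdfy3* were not included. The nuclear receptor half-site AGGTCA was in 6 of the 35 windows, against 14% of all windows, and its direct repeat with a single spacer base, DR1, which contains it, was in 0, against 0.0335%. The core hypoxia element ACGTG was in 12 windows (16.6% of all), the E-box CACGTG, which contains ACGTG, in 3 (6.02%) and the AP-1 element TGANTCA in 0 (6.75%). Apart from the GC box, neither the *Wipi1* nor the *Atg10* window held any of these motifs. Both strands were searched, and a match describes letters in the window and no bound factor.

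LC3 processing was represented by 4 tested genes. *Atg4d*, a protease that trims LC3 and GABARAP proteins, was 2.90, 3.00, 2.91 and 2.99 in the controls. It was 2.50, 2.48, 2.49 and 2.45 with HX630, and the groups were separate. The log2 fold change was -0.47 (standard error 0.037, limma adjusted p = 2.01e-05). *Atg4b*, the main protease of the family, was higher by 0.17 (standard error 0.040, adjusted p = 0.00761), while *Atg4c* had -0.08 (adjusted p = 0.174) and, on a second probe, 0.05 (adjusted p = 0.346). *Atg3*, the conjugating enzyme for LC3, had 0.12 with the widest spread among the brightest probes of the list (standard error 0.139, adjusted p = 0.479). Its replicate 1 was the lowest array in both groups.

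The 5 LC3 and GABARAP genes, whose proteins coat the phagophore and bind cargo receptors, all had a lower mean signal with HX630, but 4 of the 5 had a higher one under spike-in scaling, and none was called. *Gabarap* kept its sign, with -0.29 (standard error 0.037, limma adjusted p = 0.000313) on the brighter probe and -0.15 (adjusted p = 0.0121) on the other. Its brighter probe lay between 5.14 and 5.23 in the controls and between 4.83 and 4.94 with HX630. *Gabarapl1* (-0.18, adjusted p = 0.0136), *Map1lc3b* (-0.13, adjusted p = 0.0277), *Map1lc3a* (-0.07, adjusted p = 0.322) and *Gabarapl2* (-0.03, adjusted p = 0.566) did not pass.

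*Sqstm1* encodes the receptor that links ubiquitinated cargo to LC3, and its protein is itself degraded by autophagy. Its signal was 3.23, 3.37, 3.18 and 3.09 in the controls and 2.86, 2.76, 2.76 and 2.70 with HX630, with no overlap. The log2 fold change was -0.45 (standard error 0.065, 95% confidence interval -0.60 to -0.30, limma adjusted p = 0.000599). The related receptor *Nbr1* (-0.04, adjusted p = 0.514) and *Optn*, a receptor for mitochondria and bacteria (0.06, adjusted p = 0.433), did not pass.

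**Figure D4:**
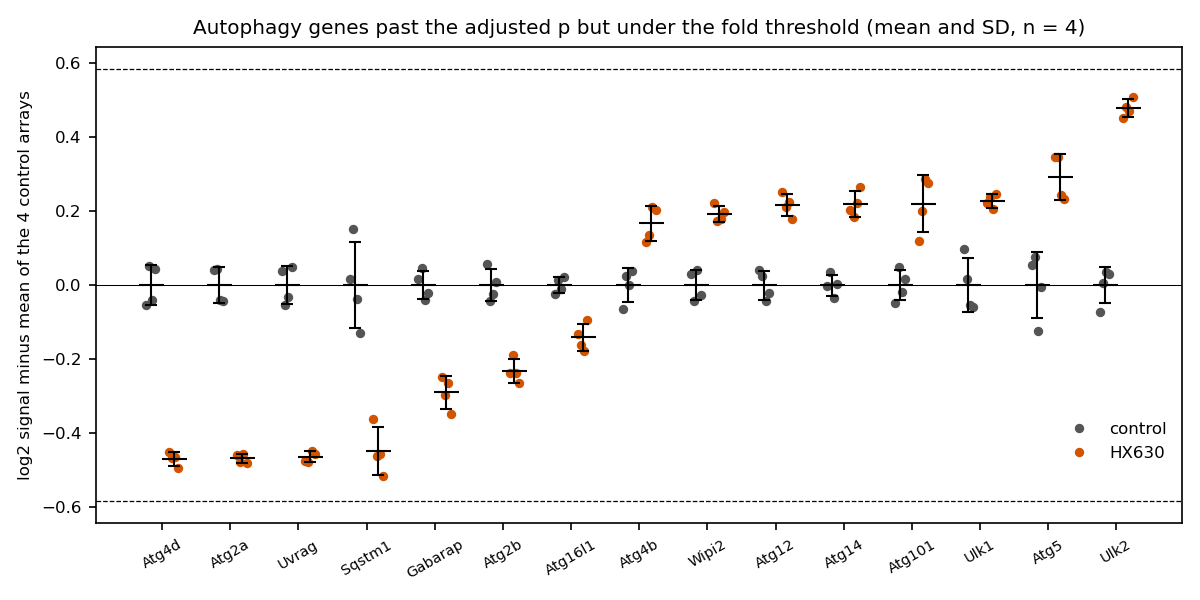
Log2 signal on each of the 8 arrays, minus the mean of the 4 control arrays, for the 15 autophagy genes with an adjusted p below 0.01 and less than a 1.5-fold change (dashed lines), by the brightest probe. Gray points are control arrays, orange points HX630 arrays, and lines with bars the mean and SD (n = 4). From *Atg4d*, *Atg2a* and *Uvrag* at -0.47, -0.47 and -0.46 to *Ulk2* at 0.48, no gene's groups overlap, which the choice by adjusted p makes likely. Over all genes tested, the groups did not overlap in 61.5%. Under spike-in scaling *Atg16l1* has 0.07.

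*Wdfy1*, an endosomal protein that binds PI3P through its FYVE domain, depended on the probe. It had 4 tested probes, and the brightest (NM_001111279) had -0.15 (limma adjusted p = 0.0135), which did not pass. The dimmer probe of that accession had -0.29 (adjusted p = 0.00372). Both probes of NM_027057 were called lower. The first of these read -0.85, -0.95, -1.03 and -0.95 in the controls and -1.72, -1.74, -1.75 and -1.56 with HX630. The other read -2.58, -2.67, -2.52 and -2.49 in the controls and -3.62, -3.70, -3.90 and -3.67 with HX630. Neither probe's groups overlapped, and the log2 fold change was -0.75 for the first (standard error 0.058, limma adjusted p = 1.8e-05), against -1.16 for the other (standard error 0.071, adjusted p = 5.11e-06). With spike-in scaling the first of them, at -0.53, was no longer called. Averaged by accession, the fold changes were -0.95 for NM_027057 and -0.22 for NM_001111279, a difference of -0.73 (two-sided exact permutation p = 0.0286, the smallest possible). This comparison was chosen after the values were seen. Among 14 pairs of probes of 12 genes, in which each further probe was compared with the brightest, 5 had the smallest exact permutation p, and after Benjamini-Hochberg adjustment the lowest p was 0.08.

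*Wdfy3*, a very large adaptor for protein aggregates, had 0.18 on its brighter probe (limma adjusted p = 0.111). The dimmer one had -0.46 (standard error 0.063, adjusted p = 0.000422), from -3.29 to -3.07 in the controls to -3.76 to -3.61 with HX630. Over the 12 autophagy genes with more than 1 tested probe, the probes had the same sign in 8, and the same call in 11, *Wdfy1* being the exception.

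The rest of the pathway was represented by 62 further genes, of which *Epg5* and *Calcoco2* were not matched to a probe and the other 60 were tested. With HX630, 1 of them was called higher and 4 lower (8.33% in all), against 8.39% higher, 11.2% lower and 19.5% in all over the array, and their median log2 fold change was -0.07. Without regard to the fold change, 13 were higher and 18 lower at an adjusted p below 0.01, a share of 51.7% against 51.2% of all genes. The 4 genes called lower are receptors of selective autophagy, a group of 16 tested genes with a median of -0.20. They are 25% of that group, against 11.2% called lower over the array. Of the 18 genes lower at an adjusted p below 0.01, 9 were in that group. These are 9 of 16, against 27.2% of all genes, and 1 of the 16 was higher, against 24%. Whether the receptors differ from other genes was not tested.

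*Bnip3*, a receptor on mitochondria that is also a target of hypoxia signaling, had the largest fall. Its brightest probe read 6.42, 6.60, 6.53 and 6.43 in the controls and 4.00, 3.84, 3.98 and 3.79 with HX630. The groups were far apart, at a log2 fold change of -2.59 (standard error 0.065, limma adjusted p = 1.22e-07), and 2 further probes had -2.65 and -2.44. *Stbd1*, which binds glycogen, read 3.84, 3.98, 4.00 and 3.94 in the controls and 2.14, 2.09, 2.03 and 1.98 with HX630. This was a separation of the same kind, with -1.88 (standard error 0.052, adjusted p = 1.81e-07). *Bnip3l*, the paralog of *Bnip3*, had -0.81 (standard error 0.054, adjusted p = 8.12e-06), and its other 3 probes lay between -0.79 and -0.70. *Ccpg1*, a receptor on the ER, had -0.59 (adjusted p = 6.86e-06), so near the threshold that it was called in 17 of 24 settings. Its other probe had -0.75.

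*Prkaa2*, a catalytic subunit of the energy sensor AMPK, was the gene called higher. It read -0.64, -0.76, -0.73 and -0.71 in the controls and -0.11, -0.09, -0.17 and -0.13 with HX630, which do not overlap. The log2 fold change was 0.59 (standard error 0.038, limma adjusted p = 7.02e-06), and it was called in 19 of 24 settings. The other catalytic subunit, *Prkaa1*, had -0.15 (adjusted p = 0.016). None of the 13 tested genes of lysosome fusion and none of the 10 further core genes was called, against 19.5% of all genes. Among them *Vamp7* (0.56) and *Snap29* (0.55), SNARE proteins, came nearest to the threshold. A dimmer *Snap29* probe had 0.18 (limma adjusted p = 0.042).

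**Figure D5:**
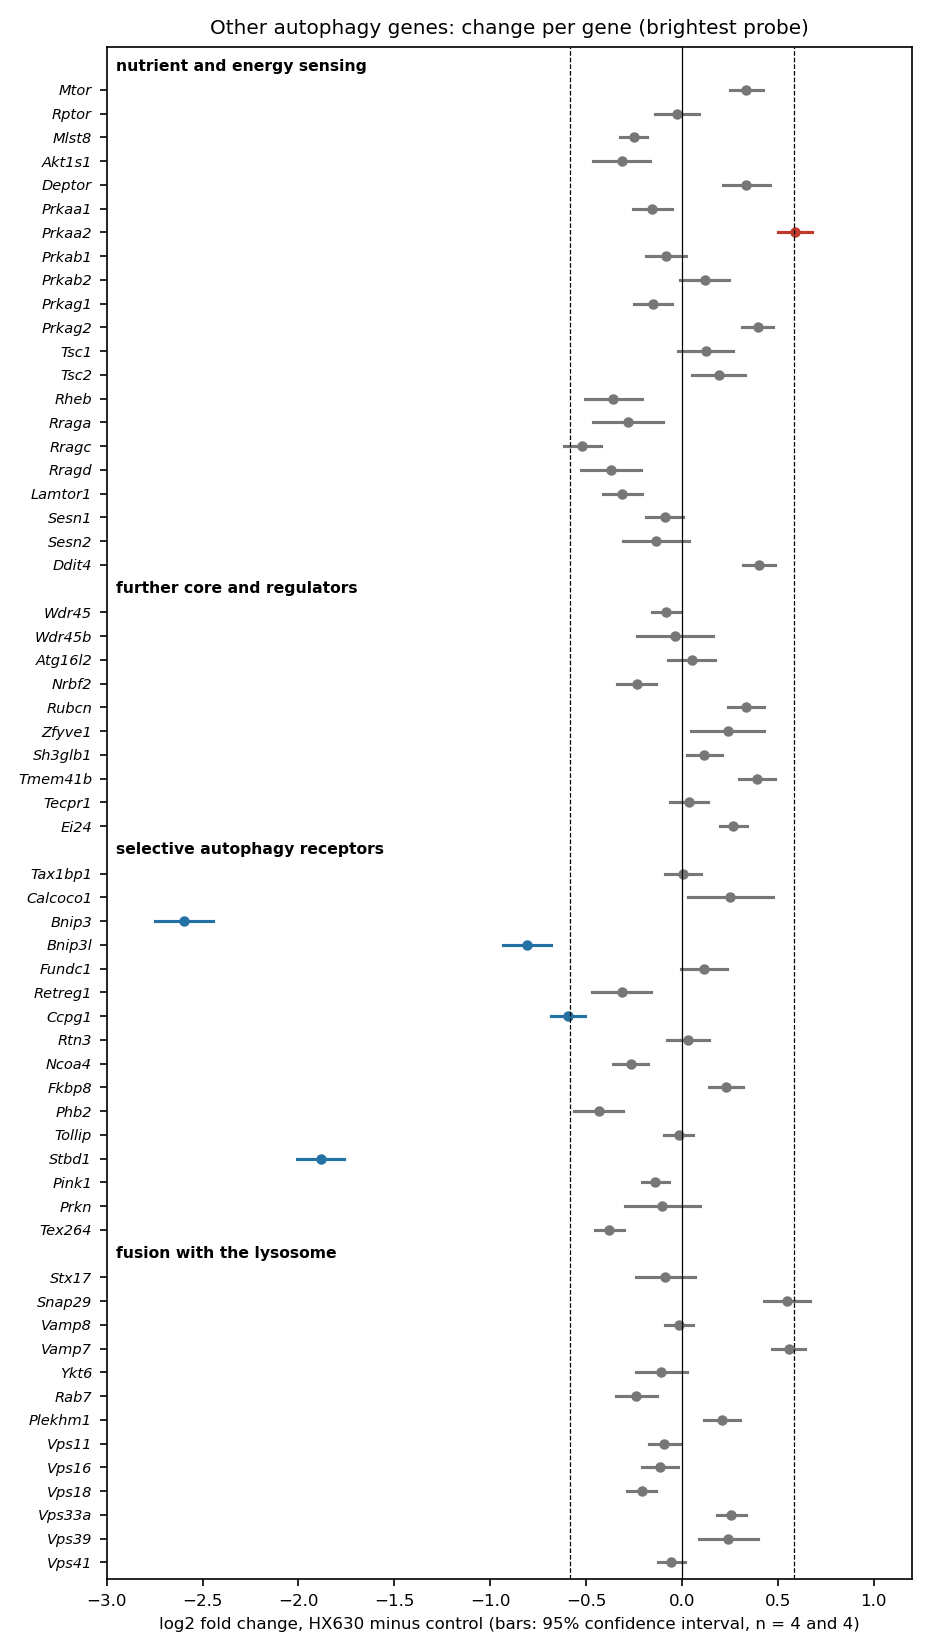
Log2 fold change of HX630 against control for the 60 further autophagy genes tested, by role, 1 row per gene. Points are limma estimates for the brightest probe, bars 95% confidence intervals over 4 and 4 arrays, and dashed lines a 1.5-fold change. *Bnip3* (-2.59), *Stbd1* (-1.88), *Bnip3l* (-0.81) and *Ccpg1* (-0.59) lie on the left, and *Prkaa2* (0.59) on the right. With spike-in scaling all points move up by 0.21.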

How the data were processed

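RNA of 4 control and 4 HX630 samples was measured on Mouse GE 4x44K v2 arrays in the Cy3 channel. The authors deposited the output of Agilent Feature Extraction 10.7.3.1, in which the processed intensity is corrected for background and spatial trends but not scaled between arrays, and a log2 table of these arrays. In all 8 arrays this deposited log2 table held the log2 processed signal minus 1 constant per array (100% of probes within 0.001), and it served as an alternative.

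Control spots (1377 of 44397) and outlier spots were left out. Spots of a probe were averaged, which gave 39429 probes, and the 75th percentile of each array was subtracted on the log2 scale. It lay between 1335 and 1863 intensity units in the controls and between 1803 and 1899 with HX630. No probe was saturated. RefSeq accessions without versions matched 26055 probes (66.1%) to symbols of GRCm38.p6. The 28560 probes well above background on at least 4 arrays were compared with lmFit and eBayes (limma 3.58.1, R 4.3.3), two-sided, with Benjamini-Hochberg adjustment over all of them, which called 2133 probes higher and 3183 lower. The number of arrays limits the precision. In simulated data for HX630 against control (28560 probes, 200 changed by 1 on the log2 scale), 81% of changes were recovered, with 1 false call. The simulated noise was independent between probes and arrays and held no slide effect. These figures therefore do not cover differences between the slides, or changes smaller than 1.

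All members are named, those with a called probe in full, and of the other autophagy genes up to 4 rises and 4 falls. The members, their groups and the other lists were chosen with earlier results of these data known. Alternatives were other scalings (median, detected probes, quantile, spike-in), normexp correction, filters on dim probes, thresholds, the methods' t-test, variance models, the mean over a gene's probes, a replicate block and each array left out. Counting a gene as called by any probe was added after the data were seen.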

Additional observations from a re-analysis of the deposited data

Results flagged for a closer look

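In 6 of 110 groups of 4 arrays, each the control or the HX630 group of 1 probe, 1 array stood apart from the other 3 by Dixon's criterion, where chance gives 5.5. The ratio of the gap to the whole range is given for each. For *Wipi1*, HX630 replicate 1 of the dimmer probe (ratio 0.936) was -0.97 against -1.60 to -1.56. For *Wdfy1*, HX630 replicate 4 of 1 probe of NM_027057 (ratio 0.836) was -1.56 against -1.75 to -1.72. For *Atg12*, control replicate 1 of the dimmer probe (ratio 0.952) was -0.90 against -0.70 to -0.69. For *Rb1cc1*, control replicate 2 of the brighter probe (ratio 0.894) was -0.83 against -0.77 to -0.76. For *Becn1*, HX630 replicate 3 (ratio 0.887) was 0.52 against 0.61 to 0.62. For *Ccpg1*, control replicate 1 of the brighter probe (ratio 0.879) was 1.12 against 1.21 to 1.22.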

How the results depend on the processing

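The fall of *Wipi1* was called under all 24 settings examined. Of the 36 tested genes, 25 kept their sign under all scalings of the arrays, normexp correction not counted among them, and 21 under all settings. Other scalings and normexp correction moved the median of all genes by 0.0875 (median), 0.0638 (quantile), 0.213 (spike-in) and -0.0531 (normexp). The share of called probes that were higher moved from 40.1% to 51.6%, 49.9%, 67.5% and 31.8%, and to 47.2% without control replicate 1. The median of the 36 genes was 0.077 with median scaling and 0.20 with spike-in scaling. The number called higher was 2 with spike-in scaling, 0 with normexp, 9 without a fold threshold, and 0 to 1 when each array was left out (0 without control replicate 4 or HX630 replicate 2). The number called lower was 8 without a fold threshold and 2 with the mean of all probes or with any tested probe, *Wdfy1* being added. Of the other autophagy genes, the number higher was 3 with median scaling, 2 with quantile, 6 with spike-in, 13 without a fold threshold and 0 to 1 when each array was left out (0 without control replicates 2 or 3 or HX630 replicates 1 or 2), and the number lower was 18 without a fold threshold. Without that threshold 13009 probes were called.

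Signs turned only for genes with small differences. With median scaling the values were 0.016 (*Atg13*), 0.044 (*Atg9a*), 0.011 (*Atg4c*), 0.021 (*Map1lc3a*), 0.053 (*Gabarapl2*) and 0.047 (*Nbr1*), and with quantile normalization 0.0023 (*Atg13*) and 0.052 (*Gabarapl2*). With spike-in scaling they were 0.14 (*Atg13*), 0.17 (*Atg9a*), 0.084 (*Vmp1*), 0.072 (*Atg16l1*), 0.14 (*Atg4c*), 0.15 (*Map1lc3a*), 0.088 (*Map1lc3b*), 0.032 (*Gabarapl1*), 0.18 (*Gabarapl2*), 0.17 (*Nbr1*) and 0.065 (*Wdfy1*). With normexp they were 0.026 (*Atg13*), -0.069 (*Ambra1*), 0.019 (*Atg16l1*), 0.081 (*Nbr1*), -0.017 (*Optn*) and 0.018 (*Wdfy1*), with the mean of all probes -0.016 (*Atg7*) and -0.14 (*Wdfy3*), and *Atg9a* ran from -0.080 to 0.013 when each array was left out (0.013 without control replicate 1). The cause was not tested. *Atg4a* and *Atg9b*, at background, could not be compared.

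Replicate numbers are shared by the groups, and the labels do not say whether they pair the samples. Correlations of the deviations of same-numbered arrays ran from -0.00897 to 0.524, and 3 of 4 were over 0.1. These values do not settle whether the numbers pair the samples, and the main fit treated the samples as unpaired. Of 8 arrays, 5 correlated best with their own number. With the replicate number as a block, 2213 probes were called higher and 3346 lower, with 1 autophagy gene each way as before.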
